A study of Schizosaccharomyces pombe with 4 samples.

Results

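The small nucleolar RNAs (snoRNAs) and other small structured RNAs described here are the 73 RNAs, of 7905 annotated features with at least 1 read in the series, whose name starts with snR or is SCR1, NME1 or RPR1. A record was used where any of its names met this rule and none was a ribosomal RNA (RDN) name or LSR1, the U2 spliceosomal RNA. The names are those of the budding yeast Saccharomyces cerevisiae, because the deposited records lie on its 16 nuclear chromosomes and its mitochondrial genome, although the cells were the fission yeast Schizosaccharomyces pombe. Every value below is therefore about reads of S. pombe libraries that matched an S. cerevisiae snoRNA or small RNA gene, and every position is the S. cerevisiae position given in the files. The release of that genome is not given in the material at hand.

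The study used CRAC, in which UV light links RNA to protein in living cells, a tagged protein is purified and the attached RNA is sequenced. The 2 control libraries came from the untagged parental strain, of mating type h+ with the alleles ade6-M216 and leu1-32 and also ura4-delta_18 and his3delta_1. The 2 Seb1-HTP libraries came from a strain with these same alleles that also carried Seb1-HTP::KAN. All cells were in exponential growth at 30 °C in YES, a rich medium, and were irradiated for 3 min. The series names each pair of libraries as biological replicates, and its title ties Seb1, a relative of budding yeast Nrd1, to the formation of RNA 3′ ends.

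Box C/D snoRNAs guide the methylation of ribosomal RNA and box H/ACA snoRNAs guide the change of uridine to pseudouridine, and a few members of each class act in the cutting of the ribosomal RNA precursor. In budding yeast, Nrd1 and its partners end the transcription of many snoRNA genes, after which the 3′ ends are trimmed. The spliceosomal RNAs U1, U4, U5 and U6 remove introns, SCR1 is the RNA of the signal recognition particle, NME1 that of RNase MRP and RPR1 that of RNase P. Which of these RNAs were recovered with Seb1 beyond the untagged background is the question the design puts to them.

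Reads naming at least 1 feature numbered 4579 and 45339 in controls 1 and 2 and 268030 and 231656 in Seb1-HTP 1 and 2. Ribosomal RNA took 77.0% to 95.1% of them. A count of 0 allows a share of up to 0.0655% in control 1, 0.00662% in control 2, 0.00112% in Seb1-HTP 1 and 0.00130% in Seb1-HTP 2 (3 reads). Intervals given below are 95% Wilson intervals, and like these limits they cover counting error only.

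The 73 RNAs held 916 reads in all. These numbered 15 in control 1, 29 in control 2, 90 in Seb1-HTP 1 and 782 in Seb1-HTP 2. As shares of named reads these were 0.328% (interval 0.199% to 0.540%), 0.0640% (0.0445% to 0.0918%), 0.0336% (0.0273% to 0.0413%) and 0.338% (0.315% to 0.362%). Control 1 and Seb1-HTP 2 were the 2 high libraries, Seb1-HTP 1 was the lowest of the 4, and the groups overlapped. The mean share was 0.186% ± 0.215 in Seb1-HTP and 0.196% ± 0.186 in the controls (SD, n = 2 each), a difference of -0.0102 percentage points that was smaller than the spread within either group (exact two-sided permutation p = 1, where the smallest p the design allows is 0.333).

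The replicates of Seb1-HTP differed by more than the groups did. The share in Seb1-HTP 2 was 10.1 times that in Seb1-HTP 1, and 4.38 times when each distinct interval (chromosome, start, end and strand) was counted once. Transfer RNA reads moved with it, at 0.0351% in Seb1-HTP 1 and 0.855% in Seb1-HTP 2, a ratio of 24.4. U2, the spliceosomal RNA that the rule left out, was at 1.92% and 2.70% in the same libraries, a ratio of 1.41. Seb1-HTP 2 also had the lower share of raw reads mapped (8.91% against 12.5%), the higher share of reads in records that name no feature (4.90% against 2.12%) and the shorter median interval over all records (41 nt against 54 nt). The part of these library differences in the small RNA values was not tested.

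**Figure D1:**
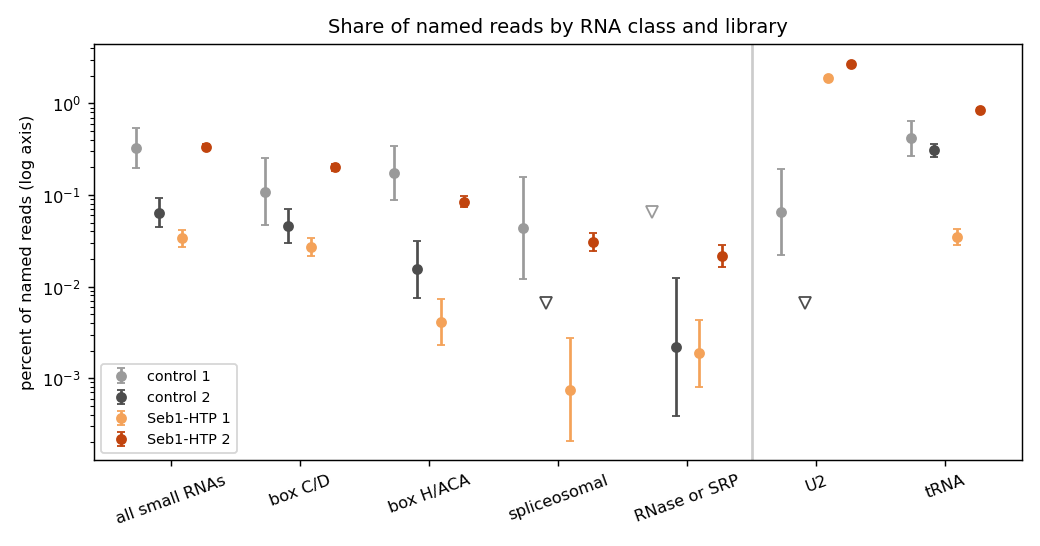
Share of named reads (percent, log axis) for all 73 small RNAs, for each of the 4 classes, and for U2 and tRNAs, with 1 point per library and 95% Wilson intervals as bars. Open triangles mark classes with 0 reads and sit at the share that 3 reads would have. The small RNA points of the 2 groups interleave, while U2 is at 0.0655%, 0%, 1.92% and 2.70% from control 1 to Seb1-HTP 2.

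In shares of named reads, the 4 classes showed the same interleaving of libraries. This did not hold under every alternative processing given below. Box C/D RNAs held 5, 21, 72 and 466 reads in control 1, control 2, Seb1-HTP 1 and Seb1-HTP 2, or 0.109%, 0.0463%, 0.0269% and 0.201% of named reads. Box H/ACA RNAs held 8, 7, 11 and 195 reads, or 0.175%, 0.0154%, 0.00410% and 0.0842%. In both guide classes Seb1-HTP 1 lay below both controls, while Seb1-HTP 2 was above both for box C/D and between them for box H/ACA. The 4 spliceosomal RNAs, U5 counted in both its forms, held 2, 0, 2 and 71 reads, and the 3 RNase and signal recognition particle RNAs held 0, 1, 5 and 50. For these 2 classes most of the reads are from a single library, Seb1-HTP 2. The spliceosomal shares were 0.0437%, 0%, 0.000746% and 0.0306%, so control 1 was the highest, on 2 reads. Those of the RNase and signal recognition particle RNAs were 0%, 0.00221%, 0.00187% and 0.0216%. Differences in mean share were 0.0363 percentage points for box C/D, -0.0509 for box H/ACA, -0.00614 for the spliceosomal RNAs and 0.0106 for the RNase and signal recognition particle RNAs, each with the 2 groups overlapping (exact permutation p from 0.667 to 1, and 1 for every class after Benjamini-Hochberg adjustment over 5 tests).

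Members were seen in numbers that followed these reads. Of the 73 RNAs, 8 had a read in control 1, 13 in control 2, 25 in Seb1-HTP 1 and 71 in Seb1-HTP 2. Among them, 38 had reads in Seb1-HTP 2 alone, 54 had none in either control, and snR190 and snR37 were the 2 seen in both controls. A lack of control reads was common in the series. Among features with at least 10 reads, 835 of 1208 were at 0 in both controls, as were 11 of 22 members. Of the 25 in Seb1-HTP 1, 23 were also in Seb1-HTP 2, which is 92% of the first list and 32.4% of the second, and the other two were snR48 and snR58. The class list for this work holds 84 names, and the 11 without a read were snR31, snR38, snR50, snR51, snR55, snR62, snR67, snR74, snR76, snR161 and snR191. In the Seb1-HTP libraries 69 members had the higher share in Seb1-HTP 2 and 4 in Seb1-HTP 1. The matching counts over all features with a read are not given here, so these numbers are not read as a trait of the small RNAs.

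**Figure D2:**
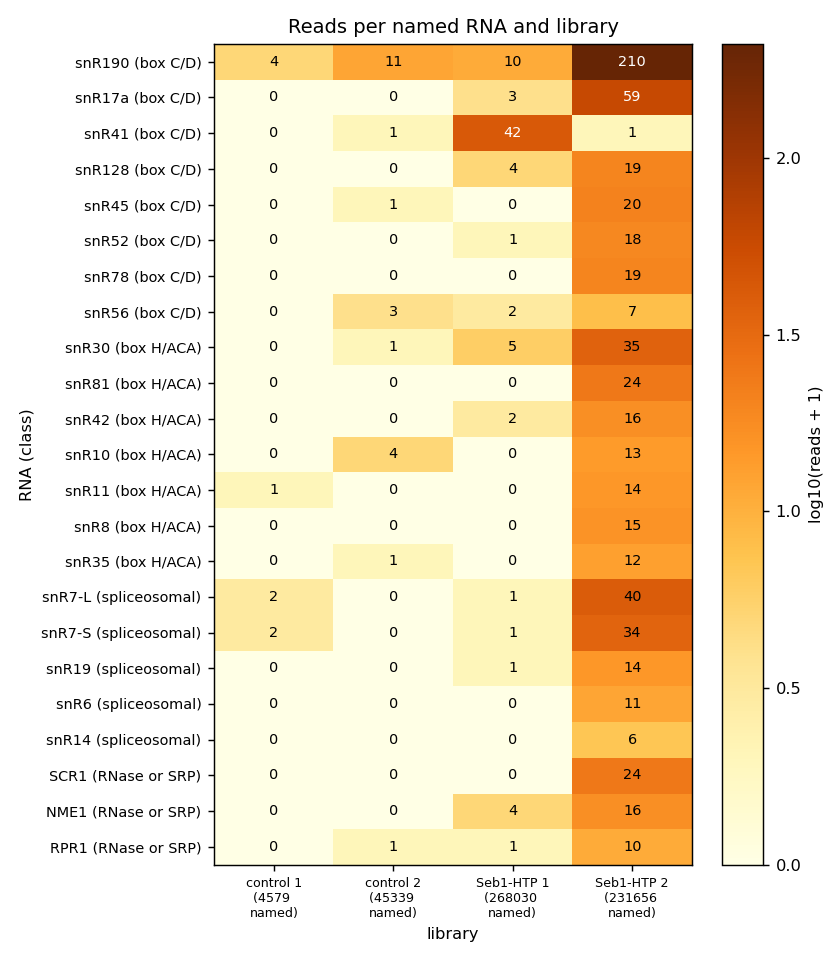
Reads per RNA (rows, grouped by class) in each library (columns, with the library's named reads), for the RNAs with at least 10 reads and all spliceosomal, RNase and signal recognition particle RNAs. Colour is log10(reads + 1) and the number in each cell is the read count. The Seb1-HTP 2 column is filled throughout, the control columns are mostly 0, and snR41 is the row where Seb1-HTP 1 holds 42 reads and Seb1-HTP 2 holds 1.

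Among box C/D RNAs snR190, which in budding yeast is made from 1 precursor together with snR128 (U14), was the most abundant in reads. It had 4, 11, 10 and 210 reads in control 1, control 2, Seb1-HTP 1 and Seb1-HTP 2, or 874, 243, 37.3 and 907 reads per 1000000 named reads (RPM). Control 1 and Seb1-HTP 2 were thus close together and Seb1-HTP 1 was the lowest, so the groups overlapped. The log2 fold change of Seb1-HTP over control was -0.18 with a standard error of 2.64 (edgeR quasi-likelihood test, Benjamini-Hochberg adjusted p = 0.973), and it turned to 0.45 with TMM factors, 0.96 without control 1 and 0.76 without Seb1-HTP 1. It made up 26.7% and 37.9% of all small RNA reads in controls 1 and 2, 11.1% in Seb1-HTP 1 and 26.9% in Seb1-HTP 2.

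The snR190 reads lay at X 139755 to 139966, 233 of 235 on the minus strand. In Seb1-HTP 2 they fell into 109 distinct intervals covering 206 nt. Of the reads of all libraries 71.9% had their midpoint in one 50-nt stretch at the lower-coordinate end, which is the 3′ end for a minus-strand record. The most frequent interval, 139758 to 139810, held 26 reads, 23 of them in Seb1-HTP 2 and 3 in control 2. The most frequent interval was thus also recorded without the tag. snR128, which takes part in the first cuts of the ribosomal RNA precursor, had 0, 0, 4 and 19 reads at X 139542 to 139713, all on the minus strand. Over the pair, from 139542 to 139966, Seb1-HTP 2 had 231 reads, 2 of them on no feature and 0 that named both RNAs.

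snR17a, the major gene for U3, which pairs with the ribosomal RNA precursor and is needed for its early cuts, had 0, 0, 3 and 59 reads. Both Seb1-HTP libraries were above both controls, at 11.2 and 255 RPM against 0, as they were for 53.6% of all 1208 features tested. With 0 control reads, U3 entered that test through Seb1-HTP reads alone, which favours this order. All 62 reads were on the plus strand, at XV 780278 to 780612, in 54 distinct intervals in Seb1-HTP 2. The midpoints of 64.5% of the reads lay in one 50-nt stretch near the 3′ end. Against the 3 reads that a pooled control count of 0 allows, the pooled Seb1-HTP reads of U3 gave a ratio of 2.06. This bound covers counting error only and not the spread between libraries, and it rests on the 59 reads of Seb1-HTP 2. The bound was 1.88 without control 1 and 4.24 without Seb1-HTP 1, and it fell under 1 without control 2 or without Seb1-HTP 2. Its p of 0.219 was the smallest of any small RNA tested and came to 0.634 after adjustment (edgeR, Benjamini-Hochberg). The second U3 gene, snR17b, had 0, 0, 0 and 7 reads.

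snR41, a guide for methylation of 18S ribosomal RNA in budding yeast, was the exception to the weight of Seb1-HTP 2. It had 0, 1, 42 and 1 reads, which made 46.7% of all small RNA reads in Seb1-HTP 1. The 42 reads of Seb1-HTP 1 formed 12 distinct intervals on the minus strand, all overlapping one 50-nt stretch, and 24 of them (57.1%) were the single interval XVI 719116 to 719150, 35 nt long. The 1 read of Seb1-HTP 2, at 719170 to 719223, overlapped the positions covered in Seb1-HTP 1 by 12 nt and did not reach the 35-nt interval. Its neighbour snR70, of the same gene cluster, had 3 reads in Seb1-HTP 2 and 0 in Seb1-HTP 1. With 2 libraries that differ this far the mean of 80.5 ± 108 RPM (SD, n = 2) was not separated from the 11.0 ± 15.6 RPM of the controls (edgeR, adjusted p = 0.727). RefSeq annotates an RNA of the same name in S. pombe, on the plus strand of chromosome I at 1200168 to 1200253 of the build ASM294v3. It is printed to show the form of such an RNA in the cells that were used, with the motifs TGATGA (the core of box C) and CTGA (box D) in capitals, and the 35-nt interval could not be laid on it here.

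snR41 of S. pombe: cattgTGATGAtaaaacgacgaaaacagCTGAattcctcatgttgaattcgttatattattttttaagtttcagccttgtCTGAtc

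Box C lies close to the 5′ end and the last box D close to the 3′ end, the arrangement that brings both ends of a box C/D RNA together. The motifs were searched on the RNA strand alone, and they do not overlap in this RNA. Of the 41 S. pombe snoRNA genes of at most 150 nt in the same annotation, 48.8% hold TGATGA, 78.0% hold CTGA and 46.3% hold both. All of these are snoRNA genes, so the shares describe that set and are no background rate of the letters.

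The remaining box C/D RNAs with at least 10 reads had most of them in Seb1-HTP 2. snR45, which guides acetylation of 18S ribosomal RNA, had 0, 1, 0 and 20 reads. snR52, a methylation guide, had 0, 0, 1 and 18 reads, all on the minus strand at V 431125 to 431221. snR56, another guide for 18S ribosomal RNA, had 0, 3, 2 and 7 reads, and at 66.2 RPM control 2 was its highest library. snR78, a guide for 25S ribosomal RNA, had 0, 0, 0 and 19 reads, but these were of another kind. They fell into 4 distinct intervals with a median length of 17 nt, the shortest in the files, and 11 were the single interval XIII 297307 to 297323. In the cluster of snR72 to snR78, made from 1 precursor in budding yeast, Seb1-HTP 2 had 26 reads over XIII 297305 to 298653 and Seb1-HTP 1 had 3, so snR78 held most of them.

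**Figure D3:**
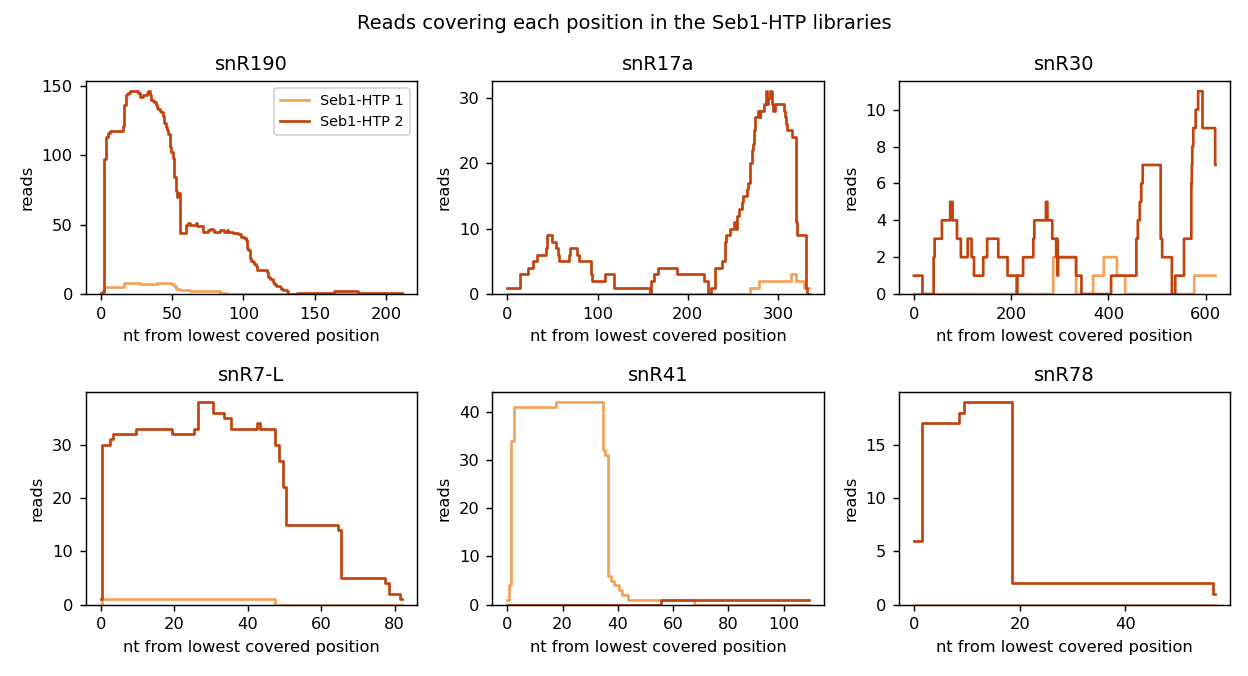
Reads covering each position (y axis) against distance in nt from the lowest covered position (x axis) for 6 RNAs in Seb1-HTP 1 and 2. snR190, snR7-L and snR41 lie on the minus strand, so their left side is the 3′ end, while snR17a, snR30 and snR78 lie on the plus strand. snR30 is covered in several separate humps over 529 nt in Seb1-HTP 2, snR78 by one step of 17-nt reads, and snR41 by a pile of 42 reads in Seb1-HTP 1.

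Among box H/ACA RNAs snR30, which is needed for making 18S ribosomal RNA rather than for a pseudouridine, had the most reads, with 0, 1, 5 and 35. They lay on the plus strand at XII 198773 to 199393. In Seb1-HTP 2 they formed 31 distinct intervals covering 529 nt. The densest 50-nt stretch held the midpoints of 31.7% of the reads of all libraries, so this RNA was sampled along its length. snR10, which also acts in precursor cutting, had 0, 4, 0 and 13 reads and was highest in control 2 at 88.2 RPM. snR81, a guide for 25S ribosomal RNA and U2, had 0, 0, 0 and 24 reads in 19 distinct intervals over 125 nt. snR8, a guide for 25S ribosomal RNA, had 0, 0, 0 and 15 reads, and snR35, a guide for 18S, had 0, 1, 0 and 12.

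For 2 further H/ACA RNAs the strands were mixed. snR42 had 0, 0, 2 and 16 reads, of which 6 were on the plus and 12 on the minus strand, and some named the gene KTR2 as well. snR11 had 1, 0, 0 and 14 reads, 11 on the plus and 4 on the minus strand, shared in part with CMC4. Records list features on either strand, so such reads need not come from the snoRNA. In control 1 the largest H/ACA count was snR46 with 4 reads, all of which carried a deletion, against 2 reads in Seb1-HTP 2 and 0 elsewhere. These 4 are among the 8 H/ACA reads of control 1, and snR46 shares positions with POP6.

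The spliceosomal RNAs apart from U2 were near or under the limit of detection outside Seb1-HTP 2. U5, which holds the exons in place during splicing, was recorded as snR7-L with 2, 0, 1 and 40 reads at VII 939457 to 939539 on the minus strand. The reads of control 1 and Seb1-HTP 1 and 34 of the 40 in Seb1-HTP 2 also named snR7-S, the form with a shorter 3′ end, so the 2 forms could not be separated. The 6 others named snR7-L without snR7-S, and each also named the gene PET54, so 0 reads named the long form alone. Because control 1 is so shallow, its 2 reads came to 437 RPM against 173 in Seb1-HTP 2, and the log2 fold change was -0.97 with a standard error of 3.28 (edgeR, adjusted p = 0.892). It turned to 0.33 with TMM factors, 7.01 without control 1 and 0.12 without Seb1-HTP 1, and none of these was called.

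U1 (snR19), which recognises the 5′ splice site, had 0, 0, 1 and 14 reads, each of the 14 a distinct interval, spread over 383 nt of XIV 230060 to 230558. U6 (snR6), the catalytic RNA of the spliceosome, had 0, 0, 0 and 11 reads, split as 6 on the plus and 5 on the minus strand. Of these 63.6% were under 25 nt, and the most frequent was a 17-nt interval with 5 reads. U4 (snR14), the partner with which U6 is paired before activation, had 0, 0, 0 and 6 reads. U2, by contrast, had 3, 0, 5134 and 6260 reads.

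SCR1, the signal recognition particle RNA, had 0, 0, 0 and 24 reads in 20 distinct intervals covering 351 nt of V 441994 to 442503, all on the plus strand. NME1 had 0, 0, 4 and 16 reads covering 222 nt of XIV 585696 to 585923, or 14.9 and 69.1 RPM in Seb1-HTP 1 and 2. Set against the reads that control counts of 0 allow, a difference was not detectable at this depth, and 53.6% of all features showed the same order of libraries. RPR1 had 0, 1, 1 and 10 reads at V 117644 to 118066, with 6 of them the single interval 117644 to 117705. The densest 50-nt stretch held the midpoints of 41.7% of the SCR1 reads, 55% of the NME1 reads and 66.7% of the RPR1 reads.

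The 51 members with under 10 reads held 213 reads in all, 8, 6, 14 and 185 in the 4 libraries. None had over 9 reads and 9 had 1. Of them 31 were box C/D, 19 box H/ACA and 1 spliceosomal. snR53 (8 reads) and snR39 (9 reads, in part shared with RPL7A) were again found in Seb1-HTP 2 alone and mostly as very short intervals, with 100% and 77.8% of reads under 25 nt.

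In the count test over all features with at least 10 reads, 22 of the 73 members could be tested. edgeR called 7 of 1208 features higher in Seb1-HTP (0.579%) and 3 lower (0.248%) at an adjusted p of 0.05. It called 0 of the 22 members in either direction. The 7 higher were U2, the ribosomal RNA names RDN18-1, RDN18-2, RDN58-1 and RDN58-2, and YLR154W-E and YLR154W-F. The 3 lower were RDN25-1, RDN25-2 and YLR154W-A. Most ribosomal RNA reads named several features (223518 of 223552 in Seb1-HTP 1), so these calls are not independent. RDN58-1 and YLR154W-E each had 33031 reads in that library. At an unadjusted p under 0.05 there were 20 features and 0 members, and DESeq2 called 1 feature and 0 members, with 41 features and 0 members at an unadjusted p under 0.05. Adjusted p-values of the members ran from 0.634 to 0.973. Both Seb1-HTP libraries lay above both controls for 53.6% of all features and for 6 of the 22 members (27.3%), namely snR17a, snR128, snR52, snR42, snR19 and NME1. All 6 were at 0 in both controls, so they passed the 10-read filter through Seb1-HTP reads alone. In Seb1-HTP 1, snR52 and snR19 had 1 read each (3.73 RPM), while 1 read in control 2 is 22.1 RPM. The filter and the deeper Seb1-HTP libraries favour this order, so it is not read as recovery with Seb1. Set against the 3 reads that a pooled control count of 0 allows, snR17a alone among the 11 tested members at 0 in both controls kept a ratio over 1. That ratio pools the reads of each group, and for snR17a it fell under 1 without Seb1-HTP 2. Both Seb1-HTP libraries lay below both controls for 0.662% of features and for 0 members. The median log2 fold change was 4.86 over all features and 3.47 over the members. Of the features, 835 were at 0 in both controls, as were 11 of the 22 members, so these medians are set by how a 0 is treated and are no bound.

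The test had little power at this spread. On simulated libraries of these depths and a dispersion of 2, it found 0% of features changed 16-fold or 64-fold, while with a spread of 0.1 it found 94% of those raised 16-fold and 12% of those lowered 16-fold. Each simulation gave every feature the same dispersion, and changed features that fell under the 10-read filter counted as missed. In the data the test did call 10 features, so the setting of 2 does not stand for each of them. The p-values do not show that the small RNAs were alike in the 2 groups.

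The proteins that bind or process these RNAs were also looked at as reads on their genes. Of 8 genes for core snoRNP proteins 7 had reads, numbering 1, 1, 9 and 85 in the 4 libraries, and 5 were tested with 0 called. GAR1, of the H/ACA particle, had 0, 0, 2 and 23 reads and NOP1, the methyltransferase of the C/D particle, had 1, 1, 7 and 16. Of 17 genes for snoRNA maturation and termination 10 had reads, 0, 2, 8 and 40, and the 1 tested, NRD1 itself with 0, 1, 0 and 15 reads, was not called (edgeR, adjusted p = 0.912). Of 17 genes for RNase P, RNase MRP and signal recognition particle proteins 11 had reads, 4, 3, 6 and 37, and 0 of 2 tested were called. Seb1-HTP 2 had the most reads of the 4 libraries in each list, though single genes such as SEN1, with 0, 0, 3 and 1 reads, did not follow. These are raw counts, and named reads numbered 4579 in control 1 against 231656 in Seb1-HTP 2. As a share of named reads the RNase and signal recognition particle list was therefore higher in control 1 than in Seb1-HTP 2. The reads were not shown to come from messages, and POP6, with 4, 0, 0 and 6 reads, shares records with snR46.

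Distinct small RNA intervals numbered 12 and 24 in controls 1 and 2, 55 in Seb1-HTP 1 and 580 in Seb1-HTP 2, or 1.64 and 1.35 reads per interval in the 2 Seb1-HTP libraries. U2 had 192 and 314 intervals there, at 26.7 and 19.9 reads each. The 2 Seb1-HTP libraries shared 9 distinct small RNA intervals, 16.4% of those of Seb1-HTP 1 and 1.55% of those of Seb1-HTP 2, and these lay in snR17a, snR190, snR52 and the 2 forms of U5. For U2 they shared 127, which is 66.1% and 40.4%. Sharing of exact intervals rises with the reads per RNA, so these shares are given as values and not compared. Of 36 control intervals on small RNAs 5 were also in a Seb1-HTP library. Among the 22 members with at least 10 reads 15 had every read on 1 strand, and 97.2% of the reads of these members lay on the main strand when the doubly named U5 form was counted once. In 17 of the 22, with both forms of U5 among them, over 0.5 of the reads had their midpoint in one 50-nt stretch. Several of the covered spans were short, such as 58 nt for snR78, 73 nt for snR6 and 83 nt for U5. A high share on such a span does not by itself show that 1 place was covered more than elsewhere.

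Median interval length on the small RNAs was 48 nt in control 1, 40 nt in control 2, 35 nt in Seb1-HTP 1 and 44 nt in Seb1-HTP 2. The value of Seb1-HTP 1 is also the length of the main snR41 interval. U2 intervals had a median of 38 nt in both Seb1-HTP libraries. Intervals under 25 nt made up 0%, 3.45%, 7.78% and 11.1% of small RNA reads in the 4 libraries. On named features other than the small RNAs, U2, tRNAs and ribosomal RNA they made up 5.81%, 6.12%, 12.3% and 32.7%. On tRNAs the values were 15.8%, 7.19%, 47.9% and 9.04%, and on ribosomal RNA 0.851%, 0.603%, 0.877% and 2.41%. Higher values in both Seb1-HTP libraries were thus also seen on the other named features and were not particular to the small RNAs. The tRNAs did not show this order, and on ribosomal RNA Seb1-HTP 1 was close to control 1.

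**Figure D4:**
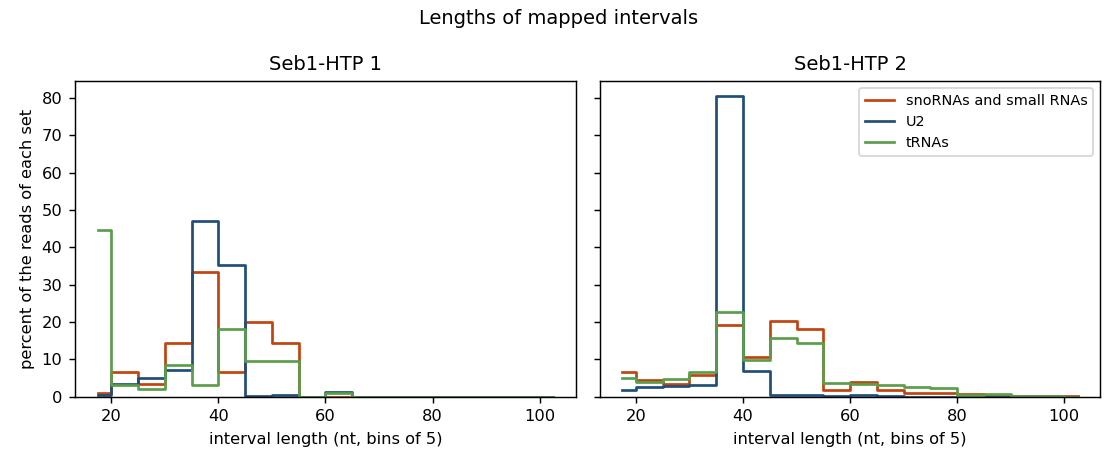
Length of mapped intervals (x axis, bins of 5 nt) as percent of the reads of each set (y axis), for the small RNAs, U2 and tRNAs in Seb1-HTP 1 (left) and Seb1-HTP 2 (right). The small RNAs of Seb1-HTP 1 peak at the 35-nt bin, which holds the snR41 interval, and those of Seb1-HTP 2 spread from 17 nt to past 50 nt.

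The records list each position at which a read differed from the S. cerevisiae sequence, which gives a second readout that the rule did not use. In Seb1-HTP 2 the 3′-most base was substituted in 50.6% of small RNA reads (interval 47.1% to 54.1%), and the 5′-most base in 1.66%. The share at the 3′-most base was 33.3% in control 1, 27.6% in control 2 and 27.8% in Seb1-HTP 1. On U2 it was 8.55% in Seb1-HTP 1 and 6.73% in Seb1-HTP 2. On ribosomal RNA it was 45.5%, 58.4%, 39.1% and 33.7% over the 4 libraries, and on tRNAs 36.8%, 27.3%, 38.3% and 35.4%. The 3′ adapter is shown because its first base, next to the RNA, is random, which the capital letter marks.

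3′ adapter: Nagatcggaagagcacacgtctg

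Whether reads ran into this base was not tested. Leaving the 3′-most base aside, 30.6% of small RNA reads in Seb1-HTP 2 carried no difference, against 12.2% of U2 reads, 9.36% of ribosomal RNA reads and 28.3% of tRNA reads. In Seb1-HTP 1 the shares were 25.6% on the small RNAs, 11.5% on U2, 6.51% on ribosomal RNA and 20.2% on tRNAs. Of the 623 small RNA reads of at least 35 nt in Seb1-HTP 2, 194 (31.1%) matched in full apart from that base, and the longest such match was 125 nt, on snR30. Full matches of this kind numbered 503 of 5598 on U2 (8.99%), 401 of 1577 on tRNAs (25.4%) and 12950 of 163118 on ribosomal RNA (7.94%).

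**Figure D5:**
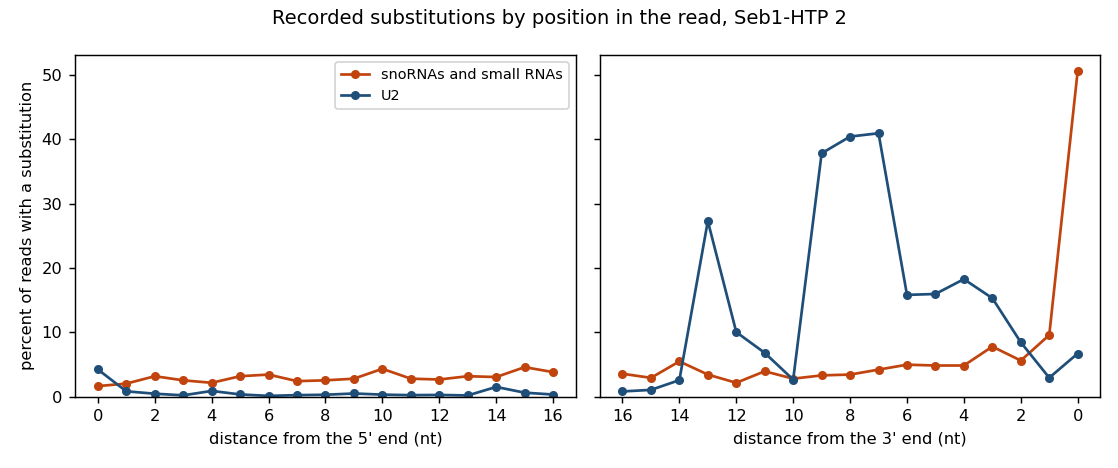
Percent of reads with a recorded substitution (y axis) at each distance in nt from the 5′ end (left) and the 3′ end (right), for the small RNAs and U2 in Seb1-HTP 2. The small RNAs are low except at the 3′-most base (50.6%), while U2 has its highest values inside the read, 40.9% at 7 nt and 40.4% at 8 nt from the 3′ end.

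Some positions were substituted in most of the records that covered them. Among positions covered by at least 5 distinct records in Seb1-HTP 2, 3 of 1220 small RNA positions (0.246%) were substituted in most records and 830 (68.0%) in none. The same count was 9 of 185 positions on U2 (4.86%), 467 of 11086 on ribosomal RNA (4.21%) and 41 of 3664 on tRNAs (1.12%). Of the 3 small RNA positions 2 were in snR81 and 1 in snR30, while snR190 had 0 of 123, snR17a 0 of 156 and snR7-L 0 of 76. In Seb1-HTP 1 it was 1 of 85 small RNA positions, which lay in snR41, and 6 of 69 on U2. These counts are a description, since neighbouring positions share reads.

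The rate of substitutions inside reads was 3.71 per 100 nt on the small RNAs and 7.33 on U2 in Seb1-HTP 2, and 3.62 and 6.94 in Seb1-HTP 1. On tRNAs it was 3.68 in Seb1-HTP 2 and 4.30 in Seb1-HTP 1, and on ribosomal RNA 4.82 and 5.05. In Seb1-HTP 2 the small RNA rate was thus close to that of tRNAs. In the controls the small RNA rate was 1.63 and 2.27, on 15 and 29 reads. Deletions, which CRAC can leave at the linked base, were recorded in 53.3% of small RNA reads in control 1, 13.8% in control 2, 7.78% in Seb1-HTP 1 and 5.24% in Seb1-HTP 2. On ribosomal RNA the same shares over the 4 libraries were 48.9%, 46.1%, 11.4% and 12.1%. On tRNAs they were 5.26%, 12.9%, 5.32% and 10.1%, with no such order. Of the 8 small RNA reads with a deletion in control 1, 4 were the snR46 reads, and the intervals of control 2 (5.50% to 30.6%) and Seb1-HTP 1 (3.82% to 15.2%) overlapped.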

How the data were processed

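The authors deposited 1 file per library of whole-number read counts. A record gives an interval on the reference, its count and strand, the features it overlaps and the positions that differ from the reference. Per the file headers the counting tool was Counters 1.4.2. The submitters' processing notes list Novoalign 2.0.4 and ASM294v2, an S. pombe build, although the records lie on S. cerevisiae chromosomes. No source used here says how duplicate reads were treated.

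Reads in records were summed per RNA, a read counting for each feature named, and divided by named reads. Records that name no feature (0.334% to 4.90% of reads in records) were left out. Exact two-sided permutation tests compared the shares. Counts of all features with at least 10 reads were tested with edgeR 4.0.16 (quasi-likelihood, R 4.3.3, Benjamini-Hochberg at 0.05), with named reads as scaling. DESeq2 1.42.0 was an alternative. Scripts were tested on simulated data. RNAs are named where they had at least 10 reads, as are all spliceosomal, RNase and signal recognition particle RNAs. Others given by name, among them snR17b, snR37, snR39, snR46 and snR53, were chosen after their values were seen, as were the counts by strand, coverage and recurring substitution. Members and lists were chosen with earlier results of these data known. Classes follow general knowledge of S. cerevisiae snoRNAs. S. cerevisiae sequences were not used here. P-values measure only the spread between these libraries.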

Additional observations from a re-analysis of the deposited data

How the results depend on the processing

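No small RNA was called under any alternative, with adjusted p from 0.0734 to 0.996. The difference in share of all small RNAs was 0.0355 percentage points from records naming a single feature and -0.162 to 0.142 with each library left out (0.122 without control 1, 0.142 without Seb1-HTP 1). With totals without rRNA and tRNA it was -1.51, and -0.528 for box C/D and -0.859 for box H/ACA. With these totals both controls lay above both Seb1-HTP libraries for box C/D (1.12% and 1.01% against 0.162% and 0.910%). With a library left out, the box C/D difference was -0.0509 to 0.123. For box H/ACA it ran from -0.131 to 0.0287, with -0.00927 from single-name records. For the spliceosomal RNAs it ran from -0.0280 to 0.0157, with 0.00558 from single-name records, where the control mean was 0. For the RNase and signal recognition particle RNAs it ran from 0.000763 to 0.0205. Their shares of distinct intervals were 0% and 0.0270% in the controls against 0.0318% and 0.103% in Seb1-HTP. The exact two-sided permutation test gave p = 0.333, the smallest the design allows, for these distinct intervals. It gave the same p for the single-name spliceosomal records and for box C/D with totals without rRNA and tRNA. Features called, 10 in all, became 0 with single-name records (4 at p under 0.05), TMM factors (145) and distinct intervals (53), 3 with totals without rRNA and tRNA, 1 with DESeq2 (41), and 3 to 12 with a library left out (3 without Seb1-HTP 1, 5 without Seb1-HTP 2). Of 240 recomputed member fold changes 18 changed sign, in 8 members. With TMM, log2 values were 0.17 for snR11, 0.45 for snR190, 0.33 for snR7-L and 0.13 for snR7-S. With totals without rRNA and tRNA they were -1.64 for RPR1, -1.54 for snR35 and -0.83 for snR45, with distinct intervals -0.17 for snR35, and with DESeq2 -0.38 for RPR1 and -0.59 for snR35. With a library left out they ran from -1.64 to 5.27 for snR10, -2.83 to 5.48 for snR11, -3.80 to 0.96 for snR190, -2.30 to 7.01 for snR7-L and -2.53 to 6.78 for snR7-S. The median over all features was 4.86, 4.67 with TMM, 4.61 without rRNA and tRNA and 1.39 with DESeq2. The cause was not tested. The labels do not pair libraries by number. Same-numbered deviations from the group means correlated at 0.10. With 2 libraries per group the opposite pairing must give the same value with its sign turned (-0.10), so this cannot decide on pairing. With the replicate number as a block 8 features and 0 members were called, with 433 features and 10 members at an unadjusted p under 0.05. Without Seb1-HTP 1 these were 559 and 10.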
